A study of Mus musculus with 4 samples.

Results

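The genes described here are 40 cell cycle genes, 18 that act in or mark the S phase of DNA synthesis and 22 that act in or mark the G2 phase and mitosis (G2/M). They were chosen by name, by a rule that uses no measured value but was written with earlier results of these data known, from the 33696 genes of the RNA tables, and all 40 had at least 3 unique molecular identifiers (UMIs, counted RNA molecules) in each tissue. The study sorted CD4+ T cells that were CD44+ and GITR- from the brain and from the spleen of wild-type C57BL/6 mice on day 60 of experimental autoimmune encephalomyelitis (EAE), an autoimmune inflammation of the central nervous system raised by immunization. CD44 marks antigen-experienced T cells, and GITR is a receptor most abundant on regulatory T cells. For droplet sequencing of the 5′ ends of RNA and of the T cell receptors (TCR), 18718 brain and 38000 spleen cells were loaded, and each tissue gave 1 RNA and 1 TCR library. The number of animals behind each library is not stated in the labels. With 1 library per tissue there was no replicate and no test between tissues, and every interval below is a 95% interval that covers counting error only.

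A dividing cell copies its DNA in S phase and separates the copies in mitosis. S-phase genes encode the helicase that opens DNA, the polymerase clamp and the enzymes that make nucleotides, and many are switched on by E2F factors as a cell passes from G1 into S. G2/M genes encode the cyclins, kinases, motor proteins and kinetochore proteins of mitosis, and many are switched on later through CCAAT and CHR (cell cycle genes homology region) promoter elements. Most memory T cells rest outside the cycle, and they divide after meeting antigen.

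After filtering, 3942 brain cells with 41053647 UMIs (median 9837.5 per cell) and 7990 spleen cells with 60468321 UMIs (median 7190) were kept. Their T cell identity held: the median cell of both tissues had 5 of the 5 T cell markers, and Cd4 stood at 338 CPM (counts scaled to a common total per tissue) in brain against 341 CPM in spleen. A further 22 brain barcodes and 169 spleen barcodes with at least 3 B cell or myeloid markers were set aside. The RNA libraries shared 31 cell barcodes, of which 15 were kept in both, and 0 of the 7 with a paired receptor in both had the same clonotype. A paired receptor was found in 79.2% of the kept brain and 84.3% of the kept spleen cells.

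Promoters of 33 of the 40 genes were in the RefSeq table used (build GRCm38.p6), as 35 windows from 250 bases before to 30 bases after the start. Stmn1, Tpx2, Mcm4, Aurkb, Gins2, Tipin and Ccna2 had no entry. Promoters are shown because the results below separate the genes by phase. The windows were searched on both strands for words of the factors named above. E2F words (TTTCCCGC, TTTGGCGC, TTTCGCGC or TTTGCCGC) were in 8 of 17 S-phase windows (47.1%), in 1 of 18 G2/M windows (5.56%) and in 2.12% of all 32851 windows in the table. CHR words (TTTGAA or TTTAAA) were in 6 of 17 S-phase windows (35.3%), in 15 of 18 G2/M windows (83.3%) and in 26.7% of all windows. CCAAT was in 14 S-phase windows (82.4%), in 16 G2/M windows (88.9%) and in 36.1% of all windows. CCAAT and a CHR word stood in the same window in 6 S-phase (35.3%), 14 G2/M (77.8%) and 10.0% of all windows. TTTAAA reads the same on both strands, the E2F words can overlap each other, and a match is a description of letters and not of binding. The following 3 S-phase windows are those of Pcna and Slbp, whose brain to spleen ratios were the highest of the 18, and of Mcm6, which had the most E2F words. The 3 G2/M windows are those of Ube2c, Ccnb1 and Cenpf, whose ratios were the lowest of all 40. Capitals mark matches to the E2F, CCAAT or CHR words on either strand, and each sequence runs 5′ to 3′ along the gene. The windows lie at chr2:132253151-132253430 (minus strand) for Pcna, chr5:33652545-33652824 (minus strand) for Slbp, chr1:128359676-128359955 (minus strand) for Mcm6, chr2:164769679-164769958 (plus strand) for Ube2c, chr13:100786457-100786736 (minus strand) for Ccnb1 and chr1:189688057-189688336 (minus strand) for Cenpf.
Pcna: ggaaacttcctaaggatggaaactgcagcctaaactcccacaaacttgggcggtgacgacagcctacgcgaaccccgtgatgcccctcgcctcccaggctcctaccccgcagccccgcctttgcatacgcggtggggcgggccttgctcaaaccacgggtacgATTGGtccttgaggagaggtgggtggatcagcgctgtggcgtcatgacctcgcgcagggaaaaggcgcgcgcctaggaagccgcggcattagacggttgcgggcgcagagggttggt
Slbp: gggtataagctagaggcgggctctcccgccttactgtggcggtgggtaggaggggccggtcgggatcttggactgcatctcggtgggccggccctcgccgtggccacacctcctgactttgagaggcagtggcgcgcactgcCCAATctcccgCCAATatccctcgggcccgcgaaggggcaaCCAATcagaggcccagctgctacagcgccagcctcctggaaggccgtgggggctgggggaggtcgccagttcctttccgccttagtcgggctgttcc
Mcm6: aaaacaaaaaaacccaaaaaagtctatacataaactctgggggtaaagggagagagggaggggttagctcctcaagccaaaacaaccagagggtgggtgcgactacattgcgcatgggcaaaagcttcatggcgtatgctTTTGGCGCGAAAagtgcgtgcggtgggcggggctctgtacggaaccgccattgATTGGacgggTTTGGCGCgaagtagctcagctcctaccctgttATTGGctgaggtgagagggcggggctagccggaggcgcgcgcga
Ube2c: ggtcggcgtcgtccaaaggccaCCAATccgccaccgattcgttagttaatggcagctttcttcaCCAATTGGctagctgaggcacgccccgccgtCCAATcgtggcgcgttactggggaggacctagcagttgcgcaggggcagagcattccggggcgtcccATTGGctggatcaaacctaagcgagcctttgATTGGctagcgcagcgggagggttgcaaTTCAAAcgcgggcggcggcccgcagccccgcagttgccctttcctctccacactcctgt
Ccnb1: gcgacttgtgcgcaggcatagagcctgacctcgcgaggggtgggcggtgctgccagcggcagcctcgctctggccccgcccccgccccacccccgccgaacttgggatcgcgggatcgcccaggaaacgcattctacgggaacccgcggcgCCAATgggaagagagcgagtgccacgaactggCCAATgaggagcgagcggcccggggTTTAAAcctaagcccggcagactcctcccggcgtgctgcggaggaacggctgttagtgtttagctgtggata
Cenpf: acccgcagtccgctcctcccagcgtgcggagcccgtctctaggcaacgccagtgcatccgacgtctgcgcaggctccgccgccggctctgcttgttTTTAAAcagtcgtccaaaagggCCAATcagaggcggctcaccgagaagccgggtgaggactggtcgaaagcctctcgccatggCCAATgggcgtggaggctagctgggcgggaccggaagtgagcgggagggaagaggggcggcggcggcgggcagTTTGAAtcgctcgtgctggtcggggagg
The windows of Pcna and Slbp held CCAAT only (1 and 3 matches), Mcm6 held 3 E2F words beside 2 CCAAT, and Ube2c, Ccnb1 and Cenpf each held CCAAT (6, 2 and 2 matches) and a CHR word (1, 1 and 2 matches). A window without a word says only that these letters are not in it.

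In the sums over all kept cells, G2/M genes were lower in brain than in spleen, while S-phase genes were centred near equal levels. A gene was called higher in a tissue at a CPM ratio of at least 1.5 with an exact conditional binomial interval that excluded 1. That interval treats UMIs of 1 cell as independent, which they are not. It is too narrow for genes whose UMIs come from few cells. Of the 22 G2/M members, 12 were called higher in spleen, 0 in brain and 10 neither, with a median log2 brain to spleen ratio of -0.77. Of the 18 S-phase members, 1 was called higher in spleen (Pclaf), 0 in brain and 17 neither, with a median of -0.04. Among all 16534 genes with at least 3 UMIs in each tissue, 12.8% were called higher in spleen and 13.9% higher in brain, with a median of -0.07. A brain to spleen ratio below 1 was found for 20 of 22 G2/M and 10 of 18 S-phase members. With a minimum of 10 CPM in whichever tissue was higher, the calls higher in spleen were 7 of 14 G2/M and 1 of 15 S-phase members, against a background of 8.65%. None of these 29 members was called higher in brain, against 9.81% of genes. This filter reads the higher tissue, and all 7 of those G2/M members stood below 10 CPM in brain, so the count is a description and no support. Of the 6 G2/M members above 10 CPM in both tissues, 0 were called.

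**Figure D1:**
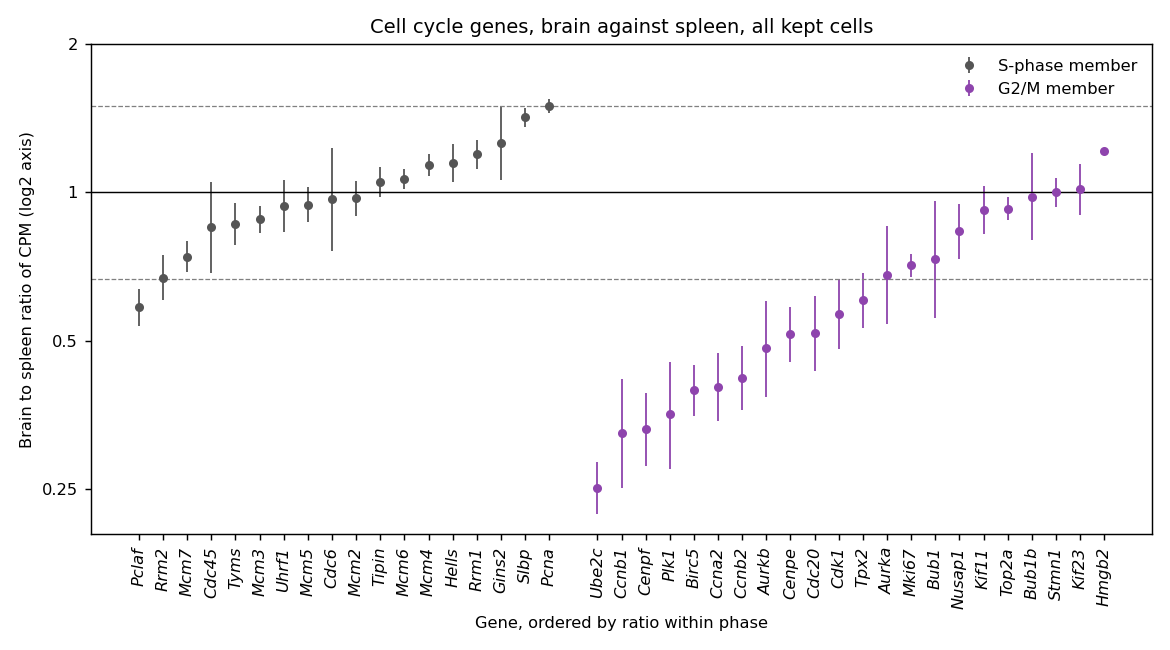
Brain to spleen ratio of CPM (log2 axis) for each member over all kept cells, with S-phase genes in grey and G2/M genes in purple, ordered by ratio. Bars are exact 95% intervals of counting error, the dashed lines mark the 1.5-fold limits, and 12 of the 22 G2/M genes but 1 of the 18 S-phase genes lie below the lower line with their ratio.

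The summed level of a phase gave another picture, and it depended on a few genes of high level. The S-phase members summed to 693 CPM in brain against 619 CPM in spleen, a ratio of 1.12 (1.10 to 1.14). Of this sum, Pcna gave 189 CPM in brain and 126 CPM in spleen, and Slbp 94.2 and 66.3 CPM. The direction of the S-phase sum rests on these genes, and 10 of the 18 ratios lay below 1. The G2/M members summed to 795 CPM in brain against 819 CPM in spleen, a ratio of 0.970 (0.957 to 0.984). Hmgb2, a chromatin protein, alone made up most of the G2/M sum, with 22511 of 32642 UMIs in brain and 27380 of 49551 in spleen. Stmn1, a microtubule-destabilising protein, had 1505 and 2219 UMIs. Without both genes, the remaining 20 G2/M members summed to 210 CPM in brain against 330 CPM in spleen, a ratio of 0.637 (0.621 to 0.653). The G2/M share of all member UMIs was 53.4% in brain and 57.0% in spleen, and 23.3% and 34.8% without Hmgb2 and Stmn1.

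Among the S-phase members, the replicative helicase genes lay close to equal levels. Mcm2 to Mcm7 encode the 6 subunits of the ring that unwinds DNA. Mcm2 stood at 23.1 CPM in brain against 23.8 CPM in spleen, Mcm4 at 65.9 and 58.0 CPM, and Mcm6 at 71.9 and 67.6 CPM. The 6 ratios ran from 0.740 (0.688 to 0.795) for Mcm7 to 1.14 (1.08 to 1.20) for Mcm4, and none was called. Cdc6, which loads the helicase, stood at 2.80 CPM in brain against 2.89 CPM in spleen. Cdc45 and Gins2, which activate the helicase, had ratios of 0.850 (0.687 to 1.05) and 1.26 (1.06 to 1.49). Tipin, which protects the replication fork, had a ratio of 1.05 (0.980 to 1.13).

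The polymerase clamp and its partner moved apart. Pcna (ENSMUSG00000027342), the clamp that holds the polymerase on DNA and also serves in DNA repair, stood at 189 CPM in brain against 126 CPM in spleen. Its ratio of 1.497 (1.45 to 1.55) lay just under the limit for a call, and it passed under other scalings of the libraries. Pcna was detected in 73.2% of brain and 48.3% of spleen cells without correction for depth. Pclaf (ENSMUSG00000040204), a protein that binds the clamp, stood at 18 CPM in brain against 30.8 CPM in spleen, a ratio of 0.585 (0.536 to 0.637). It was detected in 1.55% of brain and 1.86% of spleen cells. These shares count cells with a UMI, and free RNA was not separated from the cells' own. Reads of Pcna and Stmn1 retrocopies, if assigned to these genes, were not separated here.

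The nucleotide and histone genes differed among themselves. Slbp (ENSMUSG00000004642), which binds histone messenger RNA, stood at 94.2 CPM in brain against 66.3 CPM in spleen, a ratio of 1.42 (1.36 to 1.49). Rrm1 and Rrm2 encode the subunits of ribonucleotide reductase, which makes deoxynucleotides. Rrm1 stood at 38.1 CPM in brain against 31.9 CPM in spleen, a ratio of 1.19 (1.12 to 1.28), and Rrm2 at 12.6 and 18.8 CPM, a ratio of 0.671 (0.604 to 0.745). The subunits therefore lay on opposite sides of 1, with intervals that excluded it. Tyms, which makes thymidylate, had a ratio of 0.862 (0.783 to 0.949). Uhrf1 and Hells, which keep DNA methylation through replication, had ratios of 0.937 (0.830 to 1.06) and 1.15 (1.05 to 1.25).

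Among the G2/M members, the mitotic cyclins were lower in brain. Ccnb1 (ENSMUSG00000041431) encodes cyclin B1, which drives entry into mitosis with the kinase Cdk1. It stood at 1.88 CPM (77 UMIs) in brain against 5.77 CPM (349 UMIs) in spleen, a ratio of 0.325 (0.251 to 0.417). Ccnb2 stood at 5.58 and 13.3 CPM, a ratio of 0.420 (0.361 to 0.487). Ccna2, the cyclin of S phase and G2, stood at 4.87 and 12.1 CPM, a ratio of 0.403 (0.343 to 0.472). Cdk1 itself stood at 5.14 CPM in brain against 9.06 CPM in spleen, a ratio of 0.567 (0.482 to 0.666). All 4 genes were called higher in spleen.

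The genes that end mitosis by protein breakdown were lower in brain as well. Ube2c (ENSMUSG00000001403), the ubiquitin-conjugating enzyme of the anaphase-promoting complex, stood at 7.79 CPM (320 UMIs) in brain against 31.0 CPM (1874 UMIs) in spleen. Its ratio of 0.252 (0.223 to 0.283) was the lowest of the 40. Cdc20, which activates that complex, stood at 4.34 and 8.38 CPM, a ratio of 0.517 (0.433 to 0.615). Bub1 and Bub1b, kinases of the spindle checkpoint that holds the complex back, were not called, at ratios of 0.732 (0.555 to 0.960) and 0.980 (0.799 to 1.20).

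Mitotic kinases and their partners were mixed in their calls. Plk1, a kinase of mitotic entry, stood at 1.997 CPM in brain against 5.64 CPM in spleen, a ratio of 0.354 (0.275 to 0.452). Aurkb, the kinase of the chromosomal passenger complex, had a ratio of 0.482 (0.384 to 0.601). Birc5 (ENSMUSG00000017716), which encodes survivin of the same complex, stood at 8.45 and 21.3 CPM, a ratio of 0.396 (0.351 to 0.446). Aurka, the kinase of the spindle poles, was not called at a ratio of 0.680 (0.540 to 0.852).

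Of the 6 genes of the spindle and its motors, 3 were called higher in spleen and 3 were not called. The kinetochore genes Cenpf (ENSMUSG00000026605) and Cenpe stood at 4.09 and 7.87 CPM in brain and at 12.4 and 15.3 CPM in spleen. Their ratios were 0.331 (0.279 to 0.392) and 0.514 (0.452 to 0.584). Tpx2, which activates Aurka on the spindle, was called at 0.605 (0.531 to 0.687). Nusap1, which bundles spindle microtubules, and the motor genes Kif11 and Kif23, of the spindle and of the midbody, were not called. Their ratios were 0.834 (0.733 to 0.947), 0.920 (0.822 to 1.03) and 1.01 (0.8998 to 1.14).

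The 3 chromosome genes and Stmn1 were not called. Top2a, the topoisomerase that untangles chromosomes, stood at 55.7 CPM in brain against 60.1 CPM in spleen, a ratio of 0.927 (0.879 to 0.977). Mki67, which coats mitotic chromosomes and is widely used to mark dividing cells, stood at 49.6 and 69.8 CPM, a ratio of 0.711 (0.674 to 0.750). Hmgb2 stood at 548 CPM in brain against 453 CPM in spleen, a ratio of 1.21 (1.19 to 1.23), and Stmn1 at 36.7 CPM in both.

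To see in which cells the UMIs lay, each cell was thinned to 3000 UMIs, so that deep cells did not show more genes only for their depth, and the members detected were counted. Shallower cells were left out, 226 in brain and 532 in spleen. Cells with 10 or more members form a range and not a cell type, and the members chose them, so member values in them are descriptions. For some members, nearly all UMIs came from these few cells: 95.9% of Pclaf UMIs in brain and 94.4% in spleen, 94.0% and 95.6% for Ccna2, and 95.1% and 95.8% for Bub1. For others few did: 9.29% of Pcna UMIs in brain and 20.8% in spleen, and 9.80% and 15.7% for Slbp. The median S-phase member had 23.8% of its UMIs there in brain and 31.7% in spleen, and the median G2/M member 58.9% and 80.9%. The share was lower in brain for 20 of 22 G2/M and for 16 of 18 S-phase members. Over all genes, these cells held 965795 UMIs in brain, beside 39605913 in cells with 0 to 9 members. In spleen they held 2267956 beside 57127280. They thus held a larger part of all UMIs in spleen, so a higher share there is partly built in for any gene. Top2a had 40.5% of its UMIs there in brain and 73.5% in spleen, and Aurka 25.9% and 76.4%. Stmn1 went the other way, at 69.3% in brain and 61.0% in spleen.

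**Figure D2:**
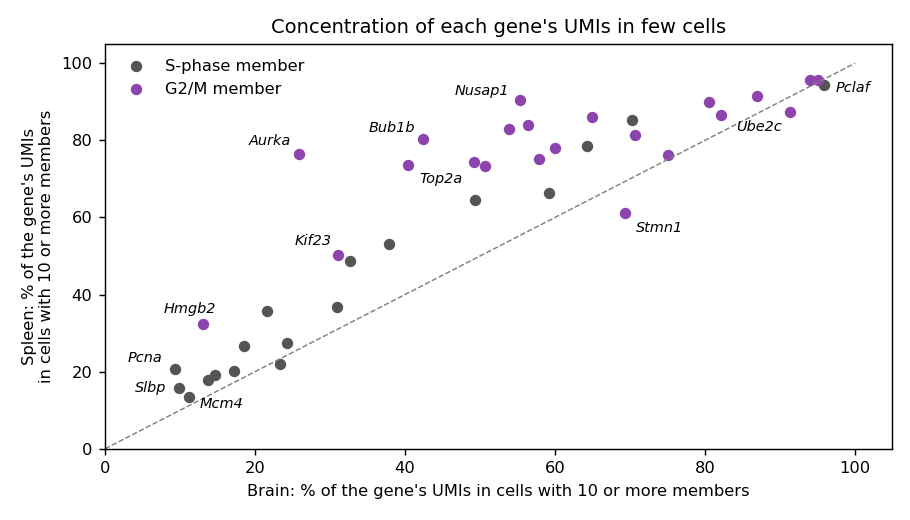
For each member, the percent of its UMIs that came from cells with 10 or more members detected, in brain (horizontal axis) and spleen (vertical axis). The dashed line marks equal shares, 20 of 22 G2/M members (purple) and 16 of 18 S-phase members (grey) lie above it, and Stmn1 lies below it. The cells with 10 or more members also held a larger part of all UMIs in spleen than in brain.

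Outside these cells the phases no longer parted as they did in the whole tissue sums. The members chose which cells were left out, and the median G2/M member had more of its UMIs in them in spleen than in brain. A shift of the G2/M ratios toward brain is therefore partly built in, and the values outside them are descriptions. In cells with 0 to 9 members, 6 of the 22 G2/M members were called higher in brain and 6 higher in spleen, with a median log2 ratio of -0.06. Of the 18 S-phase members, 2 were called higher in brain (Pcna and Gins2) and 1 in spleen (Pclaf), with a median of 0.18. Of 16377 genes measured in these cells, 14.3% were called higher in brain and 12.3% higher in spleen, with a median of -0.06. Summed, the S-phase members stood at 577 CPM in brain against 457 CPM in spleen, and the G2/M members at 599 and 408 CPM, ratios of 1.26 (1.24 to 1.28) and 1.47 (1.442 to 1.496).

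The 6 G2/M members called higher in these brain cells were of mixed roles, as were the 6 called higher in spleen. Nusap1 stood at 4.24 CPM in brain against 1.12 CPM in spleen, a ratio of 3.79 (2.82 to 5.13). Bub1b had a ratio of 2.73 (1.91 to 3.96), Kif11 of 2.45 (1.97 to 3.04), Aurka of 2.06 (1.46 to 2.94) and Top2a of 2.03 (1.87 to 2.21). Hmgb2 stood at 492 and 321 CPM, a ratio of 1.53 (1.5 to 1.56). Those that lay lower were Birc5 at 0.267 (0.175 to 0.396), Ube2c at 0.326 (0.240 to 0.436), Ccnb2 at 0.430 (0.314 to 0.581), Cenpf at 0.504 (0.295 to 0.830), Plk1 at 0.549 (0.328 to 0.892) and Ccnb1 at 0.589 (0.393 to 0.868). Ube2c, Ccnb1 and Cenpf, which had the lowest ratios over all cells, were thus among the 6 that stayed higher in spleen. Levels were low there, with Birc5 at 0.757 CPM in brain against 2.84 CPM in spleen.

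Within the cells with 10 or more members, the summed S-phase level was higher and the summed G2/M level lower in brain than in spleen. Of the 18 S-phase members, 1 was called higher in brain (Mcm4), 0 in spleen and 17 neither. Of the 22 G2/M members, 1 was called higher in brain (Stmn1), 11 in spleen and 10 neither. Of 10206 genes measured in these cells, 8.74% were called higher in brain and 6.78% higher in spleen, and as members chose the cells nothing is read from these counts. The S-phase members summed to 5559 CPM in brain against 4824 CPM in spleen, a ratio of 1.15 (1.12 to 1.19), with 15 of 18 ratios above 1. The G2/M members summed to 9070 CPM in brain against 11464 CPM in spleen, a ratio of 0.791 (0.772 to 0.811), with 20 of 22 ratios below 1. The median log2 ratios were 0.33 for S-phase and -0.56 for G2/M members, beside 0.01 for all genes measured in these cells. Mcm4 stood at 312 CPM in brain against 206 CPM in spleen, a ratio of 1.51 (1.31 to 1.75). Ube2c stood at 272 and 713 CPM, a ratio of 0.382 (0.334 to 0.435), Ccnb1 at 40.4 and 113 CPM (0.358, 0.249 to 0.503) and Aurka at 30.03 and 82.9 CPM (0.362, 0.236 to 0.538). Pcna and Pclaf, which differed over all cells, had ratios of 1.07 (0.975 to 1.17) and 0.948 (0.867 to 1.03) in these cells. Stmn1 and Bub1 were the G2/M members with ratios above 1. Stmn1 stood at 1080 CPM in brain against 596 CPM in spleen, a ratio of 1.81 (1.67 to 1.97), and Bub1 at 80.8 and 69.7 CPM, a ratio of 1.16 (0.872 to 1.53).

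The share of cells with 4 or more members was higher in brain, and the share with 10 or more was not. With 4 or more members there were 748 of 3716 brain cells, 20.1% (18.9 to 21.5), and 870 of 7458 spleen cells, 11.7% (10.9 to 12.4). With 10 or more there were 43 brain cells, 1.16% (0.839 to 1.56), and 111 spleen cells, 1.49% (1.23 to 1.79), and these intervals overlap. The order changed between 6 and 7 members: 3.36% of brain and 2.87% of spleen cells had at least 6, and 2.10% and 2.15% had at least 7. Without thinning, 73.7% of brain and 46.5% of spleen cells had 4 or more members, and 6.09% and 2.87% had 10 or more. Near the lower limit lay many cells, with 848, 457 and 166 brain cells at 3, 4 and 5 members and 1311, 493 and 163 spleen cells. Near the upper limit lay few, with 4, 5 and 5 brain cells and 13, 8 and 6 spleen cells at 9, 10 and 11 members. The highest cell had 30 of the 40 members in both tissues.

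**Figure D3:**
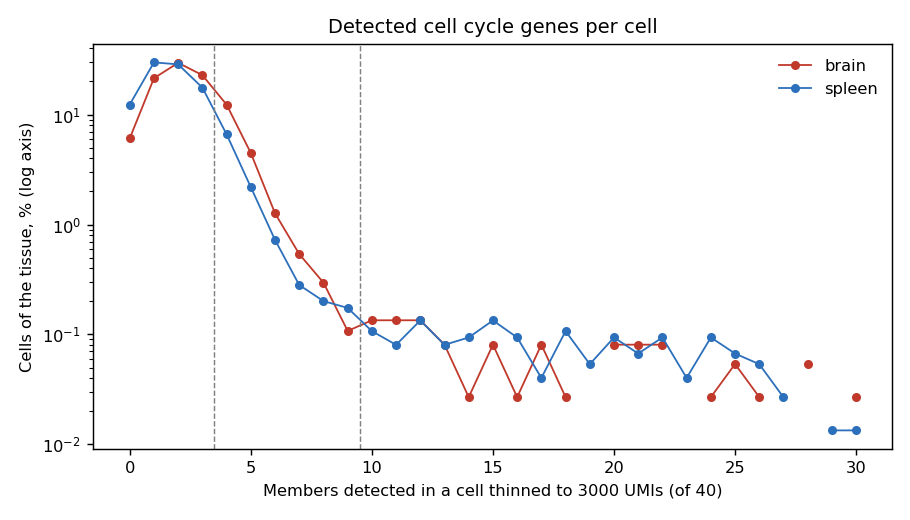
Percent of each tissue's cells (log axis) by the number of members detected after thinning to 3000 UMIs, for 3716 brain cells (red) and 7458 spleen cells (blue). Dashed lines mark the limits of 4 and 10 members, numbers with no cell have no point, and both curves end in a flat tail that reaches 30 members.

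Cell cycle genes that are not members set the cells with 10 or more members apart from the rest, and those with 4 to 9 far less. Of 28 other S-phase genes and 31 other G2/M genes, the thinned brain cells with 10 or more members held 15.0 and 13.8 UMIs per cell, and those with 0 to 3 members 2.20 and 1.87. In spleen the values were 13.1 and 17.8 UMIs per cell against 1.81 and 2.59. Cells with 4 to 9 members held 1.14 times (other S-phase genes) and 1.16 times (other G2/M genes) the UMIs of cells with 0 to 3 in brain, and 1.37 and 1.06 times in spleen. By gene, 25 of 28 other S-phase and 27 of 27 measured other G2/M genes were called higher in the brain cells with 10 or more members than in those with 0 to 3. That compares with 8.98% of all genes called higher there and 4.02% lower. In spleen the counts were 27 of 28 and 31 of 31, against 12.8% of all genes called higher and 6.34% lower. Genes entered at 10 thinned UMIs in all. Some that were nearly absent from cells with 0 to 3 members entered only through the cells where they were high. For those the call was set by the filter, so these counts are descriptions.

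The cells with 10 or more members also differed in depth and stress genes. Their median UMI count was 20860 in brain and 19297 in spleen, against 10067 and 7369.5 for cells with 0 to 3 members. A list of 15 stress and immediate-early genes had a median of 6691 CPM in them in brain and 1661 CPM in spleen, against 12577 and 1884 CPM in cells with 0 to 3 members. The part of depth and of these genes in the differences between tissues was not tested. Before barcodes with too many receptor chains were removed, 2 of 44 brain and 7 of 115 spleen cells with 10 or more members had them, 4.55% (0.555 to 15.5) and 6.09% (2.48 to 12.1), against 4.50% and 3.98% of the remaining cells. At least 2 T cell markers were detected in 43 of 43 brain and 108 of 111 spleen cells, and at least 2 myeloid markers in 0 and 0. At least 2 B cell markers were detected in 0 brain cells and 1 spleen cell, plasma cell markers in 2 and 1, and CD8 markers in 0 and 2. Erythroid genes summed to 556 CPM in the 111 spleen cells, with at least 2 of their markers in 1 cell, and to 0 in the 43 brain cells.

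The receptors of these cells were mostly diverse. The 42 brain cells with 10 or more members and a paired receptor belonged to 40 clonotypes, and the 96 spleen cells to 89, with no clonotype above 2 cells in either. In spleen, 66.7% (56.3 to 76.0) of them belonged to a clonotype seen in a single cell, against 90.5% (89.7 to 91.2) of cells with 0 to 3 members. In brain the shares were 54.8% (38.7 to 70.2) and 59.3% (57.4 to 61.3). Clonotypes of at least 5 cells held 6 of the 42 brain cells, 14.3% (5.43 to 28.5), and 1 of the 96 spleen cells, against 22.5% and 2.85% of cells with 0 to 3 members. A clonotype also found in the other tissue was carried by 4 brain cells, 9.52% (2.66 to 22.6), against 17.7% (16.2 to 19.3) of brain cells with 0 to 3 members. In spleen 10 cells carried one, 10.4% (5.11 to 18.3), against 5.40% (4.84 to 6.01).

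By phase, cells with 10 or more members held mostly S-phase genes in brain, and were split in spleen. Of the 43 brain cells, 29 had more S-phase than G2/M members detected, 67.4% (51.5 to 80.9), 13 had more G2/M members, 30.2% (17.2 to 46.1), and 1 had equal numbers. Of the 111 spleen cells, 49 had more S-phase members, 44.1% (34.7 to 53.9), 58 had more G2/M members, 52.3% (42.6 to 61.8), and 4 had equal numbers. The median cell had 9 S-phase and 7 G2/M members in brain, and 9 and 10 in spleen. Not counting Hmgb2 and Stmn1, at most 3 G2/M members were found in 18 of the 43 brain and 30 of the 111 spleen cells. At most 3 S-phase members were found in 3 brain and 19 spleen cells. The brain and spleen intervals for each phase overlap, and these counts read the same genes that chose the cells.

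**Figure D4:**
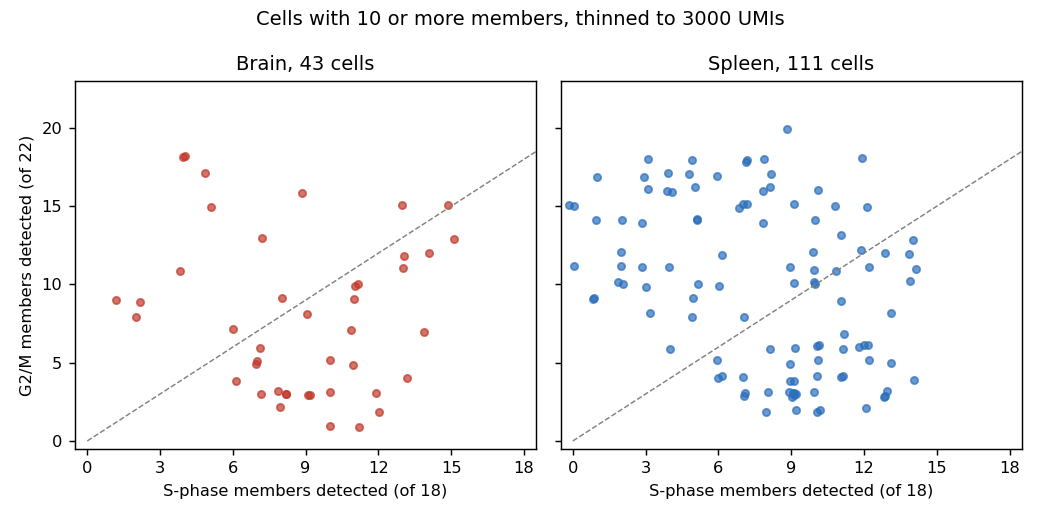
Numbers of S-phase members (horizontal axis) and G2/M members (vertical axis) detected in each cell with 10 or more members after thinning, with 43 brain cells in red and 111 spleen cells in blue. Points are jittered by up to 0.2, the dashed line marks equal numbers, and 29 brain and 49 spleen cells lie below it.

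The order of the tissues was the same in a list of genes that did not choose these cells. In the lists of other S-phase and other G2/M genes, the G2/M list held 48.0% (45.2 to 50.8) of the UMIs in the brain cells with 10 or more members, and 57.5% (55.9 to 59.2) in the spleen cells. In cells with 0 to 3 members that share was 45.8% (44.9 to 46.7) in brain and 58.9% (58.4 to 59.5) in spleen. This gap is wider, but Smc4, a gene of the G2/M list with a high level, differed strongly between these cells. Its thinned level there was 556 CPM (spleen) against 283 CPM (brain). With 10 or more members the values were 853 CPM (spleen) and 674 CPM (brain). The part of Smc4 in each gap was not tested, so nothing is read from the wider gap. For the members the G2/M shares were 60.3% (58.1 to 62.5) and 70.1% (68.8 to 71.3), and without Hmgb2 and Stmn1 46.0% (43.4 to 48.6) and 59.0% (57.4 to 60.5). These intervals treat UMIs of 1 cell as independent, which they are not.

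The helper state of the cells was read from 4 genes with at least 1 UMI after thinning and from the receptor. Foxp3 defines regulatory T cells, Cxcr5 is the homing receptor of follicular helper cells, and Il17a and Ifng are the cytokines of Th17 and Th1 cells. A productive TRAV11-TRAJ18 chain marks invariant natural killer T (NKT) cells, which see lipids and not peptides. The clearest value was that of the invariant chain in spleen: 18 of the 98 cells with 10 or more members and a productive alpha chain carried it, 18.4% (11.3 to 27.5). It was in 10.1% (7.995 to 12.6) of spleen cells with 4 to 9 members and in 9.47% (8.74 to 10.2) of those with 0 to 3. In brain it was in 4 of 42 such cells, 9.52% (2.66 to 22.6), and in 3.68% (2.98 to 4.50) of cells with 0 to 3 members. Turned around, 2.75% (1.64 to 4.31) of the 655 invariant spleen cells had 10 or more members, against 1.49% of all spleen cells, and 3.25% (0.893 to 8.12) of the 123 invariant brain cells, against 1.16% of all brain cells. Of the 18 invariant spleen cells, 14 had more S-phase and 4 more G2/M members, and of the 4 in brain 1 and 3.

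Ifng was found in 12 of the 111 spleen cells with 10 or more members, 10.8% (5.71 to 18.1), against 3.84% (3.39 to 4.33) of those with 0 to 3. With another random seed of the thinning the first share was 6.42%, so its size depends on the draw. Of the 315 spleen cells with Ifng, 3.81% (1.98 to 6.56) had 10 or more members. Among spleen barcodes set aside for B cell or myeloid markers (152 deep enough, median 5571.5 UMIs), 0.658% had Ifng. The median of all thinned spleen cells was 7389.5 UMIs. In brain, 14 of the 43 cells had Ifng, 32.6% (19.1 to 48.5), against 31.4% (29.7 to 33.1) of cells with 0 to 3 members. The brain barcodes set aside (21 deep enough, median 13241 UMIs) had Ifng in 7, 33.3% (14.6 to 57.0), so the brain value lay at the level of these barcodes. Whether these barcodes also held T cells was not tested. With another seed the share of brain cells with 10 or more members that had Ifng was 45.7%. Without thinning, Ifng was in 74.4% of the 43 brain and 26.1% of the 111 spleen cells. Among invariant cells, Ifng after thinning was in 57.7% (48.5 to 66.6) of 123 in brain and 12.5% (10.1 to 15.3) of 655 in spleen. The part of invariant cells in the Ifng shares was not tested.

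Regulatory, follicular helper and Th17 genes gave no higher share in the cells with 10 or more members beyond counting error in these intervals. Foxp3 was in 7 of the 111 spleen cells, 6.31% (2.57 to 12.6), against 9.59% (8.89 to 10.3) of those with 0 to 3 members, and in 3 of the 43 brain cells, 6.98% (1.46 to 19.1), against 4.75% (4.01 to 5.58). The share of invariant spleen cells with Foxp3 was 0.305%. Cxcr5 was in 4 of the 111 spleen cells, 3.60% (0.990 to 8.97), against 6.71% (6.12 to 7.34), and in 0.153% of invariant spleen cells. With another seed the first share was 7.34%, on the other side of 6.71%, so no order is read from it. Among the 152 spleen barcodes set aside for B cell or myeloid markers, Cxcr5 was in 38.8% (31.0 to 47.0). It is thus not limited to T cells in this library. It was in 0 of the 43 thinned brain cells, which allows a share of up to 6.98% of cells with a UMI at this depth, for counting error only, and without thinning 1 of the 43 had it. Il17a was in 1 of the 43 brain cells, 2.33% (0.0589 to 12.3), against 6.94% (6.05 to 7.92) of those with 0 to 3 members. The brain backgrounds differ: each of Foxp3, Cxcr5 and Il17a was in 2 of the 21 set-aside barcodes, 9.52% (1.17 to 30.4), and in 0 of the 123 invariant brain cells (interval up to 2.95%). The brain shares of these genes lay between them or at 0, and are given as values only. In spleen 1 of the 111 cells had it, and 1 of 6588 with 0 to 3 members. None of the 5 states was found in 53.5% (37.7 to 68.8) of the brain and 65.8% (56.2 to 74.5) of the spleen cells with 10 or more members.

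**Figure D5:**
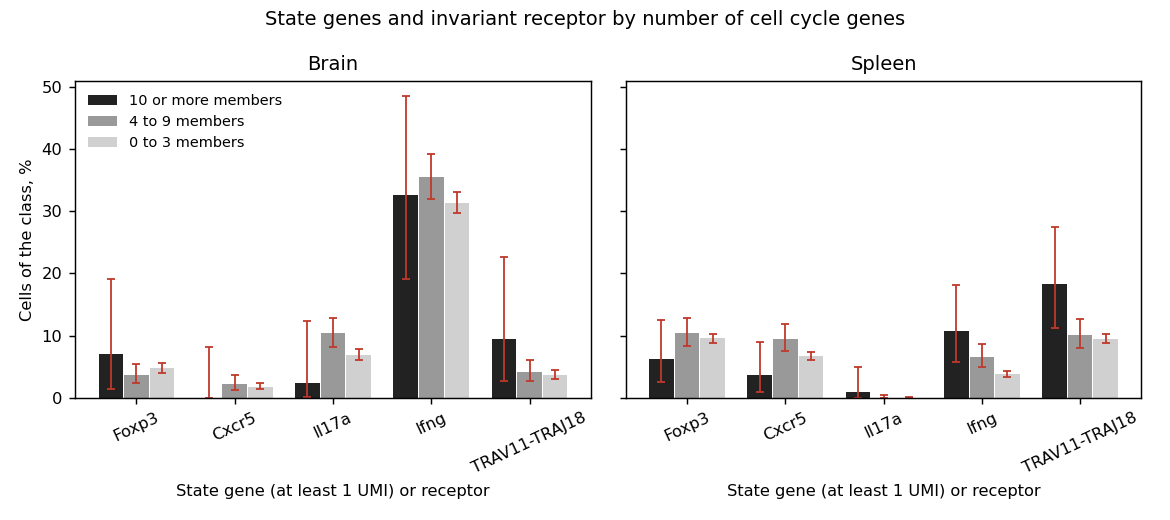
Percent of cells with at least 1 UMI of a state gene after thinning, or with a TRAV11-TRAJ18 chain among cells with a productive alpha chain, by number of members detected. Red bars are exact 95% binomial intervals, and the spleen bar for the invariant chain stands at 18.4% in cells with 10 or more members and 9.47% in cells with 0 to 3.

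Other cell cycle lists, none of whose genes is a member, followed the phases in the same way over all kept cells. Of 31 other G2/M genes, 17 were called higher in spleen and 1 in brain, with a median log2 ratio of -0.62. Of 28 other S-phase genes, 2 were called higher in spleen and 3 in brain, with a median of -0.05. Among all measured genes 12.8% were called higher in spleen and 13.9% in brain. Smc4, a subunit of the condensin that compacts chromosomes, stood at 284 CPM in brain against 552 CPM in spleen, a ratio of 0.514 (0.503 to 0.525). Cks2, which binds the cyclin-dependent kinases, was the single G2/M gene called higher in brain, at 67.1 and 30.6 CPM, a ratio of 2.20 (2.07 to 2.33). Tmpo, a nuclear envelope protein, and Ckap5, which lengthens microtubules, were not called, at ratios of 0.926 (0.888 to 0.965) and 0.827 (0.782 to 0.874). Among S-phase genes, Atad2, a chromatin ATPase, stood at 119 CPM in brain against 55.8 CPM in spleen, a ratio of 2.14 (2.05 to 2.23). The histone chaperone gene Nasp, the deubiquitinase gene Usp1 and the maintenance methyltransferase gene Dnmt1 stood at 101, 82.6 and 69.3 CPM in brain against 69.5, 85.1 and 90.1 CPM in spleen, and were not called.

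Genes that brake the cycle were called higher in brain or were not called. Of 10 cycle inhibitor genes, 6 were called higher in brain and 0 in spleen, with a median log2 ratio of 1.10. The shares of all measured genes were 13.9% higher in brain and 12.8% higher in spleen. Btg1 and Btg2, antiproliferative genes of resting lymphocytes, stood at 1224 and 731 CPM in brain and at 657 and 203 CPM in spleen. Their ratios were 1.86 (1.84 to 1.89) and 3.60 (3.53 to 3.68). Cdkn1b, which encodes p27, was not called at 216 and 186 CPM, nor was Cdkn2d, which encodes p19, at 71.2 and 97.1 CPM. The Cdkn2d ratio lay below 1, at 0.732 (0.700 to 0.766). The stress and immediate-early list was also higher in brain, and its part in the inhibitor ratios was not tested. Of 15 genes of the G1 machinery, 1 was called higher in brain and 3 in spleen, with a median of -0.10. Nothing is read from so few calls beside those shares. The cyclin D genes Ccnd3 and Ccnd2, the kinase gene Cdk4 and the pocket protein gene Rbl2 were not called.

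Within a tissue the inhibitors split by gene between cells with 10 or more members and cells with 0 to 3. In brain 3 of 10 were called higher and 3 lower in the cells with 10 or more members, and in spleen 4 and 4 of 9 measured. Of all genes, 8.98% were called higher and 4.02% lower there in brain, and 12.8% and 6.34% in spleen. Summed over the list, these cells held 0.568 times (0.489 to 0.656) the UMIs per cell of cells with 0 to 3 members in brain and 0.579 times (0.509 to 0.656) in spleen. Btg1 stood at 0.383 times in brain and 0.230 times in spleen, and Cdkn1b at 0.236 and 0.329 times. Cdkn2d went the other way, at 1.74 times in brain and 2.36 times in spleen. Cdkn1a, which encodes p21, an inhibitor of cyclin-dependent kinases, was singled out after its values were seen. It stood at 217 CPM in the brain cells with 10 or more members and 67.5 CPM in those with 0 to 3, a ratio of 3.22 (2.12 to 4.70), and in spleen at 27.0 and 0.708 CPM, a ratio of 38.2 (14.6 to 94.6). The spleen ratio rests on few UMIs. Over all kept cells Cdkn1a had 2999 UMIs in brain (73.1 CPM) and 111 in spleen (1.84 CPM), a ratio of 39.8 (32.9 to 48.5). Of the G1 genes, 8 of 13 measured in brain and 11 of 14 in spleen were called higher in the cells with 10 or more members, and 0 and 1 lower. These counts carry the limit of the 10 UMI filter given above. Cdk4, the kinase that cyclin D activates, stood at 2.28 times (1.51 to 3.33) in brain and 2.10 times (1.63 to 2.68) in spleen.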

How the data were processed

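RNA libraries of brain and spleen T cells were counted by the authors as whole UMI counts per gene and barcode, deposited without normalization. Cell Ranger 9.0.0 is named in the matrix headers, per the file headers, and in the submitters' processing notes, which list the builds mm10, mm39, GRCm38 and GRCm39 with no role for each, so the count tables' gene coordinates are left out. TCR contig tables, as deposited by the authors, gave the receptors. How the counting used strand is not stated there.

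Barcodes were kept from 500 genes and 1000 UMIs upwards if mitochondrial UMIs made up no more than 10% (4143 of 4277 in brain, 8474 of 8707 in spleen). As likely doublets, barcodes with over 1 productive beta or over 2 productive alpha chains were removed (179 and 315), and doublets without a second recovered receptor remain. Barcodes with at least 3 B cell or 3 myeloid markers were then left out. The counts of each tissue were added up and expressed as CPM, and ratios have exact conditional binomial (Clopper-Pearson) 95% intervals, for genes of at least 3 UMIs in each tissue. Within a tissue, cells with 10 or more members were compared with cells with 0 to 3 on thinned counts, for genes of at least 10 UMIs in all. Cells were thinned once, without replacement, to 3000 UMIs. Shares have exact binomial intervals.

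Named genes were all members, the 4 genes of highest mean CPM in each other cell cycle list, the state genes and the T cell marker Cd4. Cdkn1a was named outside this rule, after its values were seen. The members and lists were chosen with earlier results of these data known. Python 3.11.15 (numpy 2.4.6, scipy 1.17.1, pandas 2.3.3), edgeR 4.0.16 and DESeq2 1.42.0 (R 4.3.3) were used, the last pair only for scaling factors. The ratio calculation was tested on simulated counts. Alternatives covered cell filters, thinning depth and seed, scaling, low counts, the ratio for a call and the members counted.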

Additional observations from a re-analysis of the deposited data

How the results depend on the processing

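Of 126 alternative values, 76 moved by less than the limits used here, 45 moved and 5 changed sign. With all deposited barcodes, or with barcodes of several receptor chains or other-cell markers kept, the median log2 ratio of the S-phase members was -0.0846 and -0.0805 and that of the G2/M members -0.82 in both, and 1 member (Pcna) was higher in brain. TMM scaling shifted all log2 ratios by 0.05 and DESeq2 scaling by 0.06, which took the S-phase median from -0.04 to 0.00380 and 0.0117, the G2/M median to -0.72 in both, and the members higher in brain from 0 to 1. That count was also 1 without the barcodes shared by both libraries. Without Hmgb2 and Stmn1 the G2/M median was -0.88, the G2/M share of member UMIs 23.3% in brain and 34.8% in spleen, and the share of cells with 4 or more members 8.99% and 5.90%. Members higher in spleen were 8 at 10 CPM or more, with a G2/M median of -0.61 and 7 other G2/M genes, and 8 at a ratio of at least 2. The 10 CPM filter reads the higher tissue, and the 7 G2/M members called under it stood below 10 CPM in brain, so those counts do not bear on the part of low counts.

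Leaving out the cells with 10 or more members gave 7 members higher in spleen and 8 in brain, an S-phase median of 0.18, a G2/M median of -0.0573 and G2/M shares of 50.9% in brain and 47.1% in spleen; this setting was added after the data were seen. Without thinning in that count (240 brain and 229 spleen cells left out) the values were 5, 11, 0.17, 0.20, 51.4% and 46.4%. In both settings the members chose the cells left out, so these values are descriptions. At 2000 UMIs, 8.58% of brain and 5.56% of spleen cells had 4 or more members and 0.830% and 1.15% had 10 or more. At 5000 UMIs the shares were 45.3%, 29.0%, 1.60% and 2.08%, and without thinning 73.7%, 46.5%, 6.09% and 2.87%, so the order of the tissues for 10 or more members held at each thinned depth and was the opposite without thinning. Unthinned, Ifng was in 74.4% of brain and 26.1% of spleen cells with 10 or more members and Cxcr5 in 19.8% of the spleen cells, and with another seed Il17a was in 0 of the spleen cells. That seed gave 6.42% for Ifng and 7.34% for Cxcr5 in spleen and 45.7% for Ifng in brain. The share of those cells with more G2/M than S-phase members moved within its interval in each alternative run.

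No paired analysis was possible because each tissue has 1 RNA library and nothing pairs cells across tissues. Differences between the tissues and between the libraries cannot be told apart. The 43 brain cells with 10 or more members limit each share within them, and low G2/M members are thinly counted: Ccnb1 rests on 77 brain UMIs in all.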
